A study of Mus musculus with 4 samples.

Results

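The serotonin receptors of mouse dorsal root ganglia were examined through every probe set that the platform annotation assigns to Htr3a, Htr3b, Htr1a, Htr1b, Htr1d, Htr2a, Htr2b, Htr2c, Htr4 or Htr7. Of these 10 genes, 9 had at least 1 probe set, 16 in all, out of 45101 probe sets and 18193 singly named genes on the array. No probe set was assigned to Htr2a, which is not analysed here. Dorsal root ganglia hold the cell bodies of the body's sensory neurons, and their total RNA, taken from fresh dissections, was hybridised to 4 Affymetrix arrays. There were 2 arrays of the sample-2 level of ganglia and 2 arrays of the sample-1 level, and the design sets one level against the other. The labels do not name the levels, give no strain, genotype, age or treatment beyond the dissection, and do not tell whether the 2 arrays of a level stand for different animals. The p-values thus reflect array-to-array spread that may be purely technical.

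Serotonin is released in injured or inflamed tissue, in mice by platelets and mast cells, and acts on the endings of sensory neurons. The Htr3 genes encode subunits of a cation channel that serotonin opens directly. Every other serotonin receptor is coupled to G proteins: the Htr1 receptors act through Gi/o and lower cyclic AMP, the Htr2 receptors act through Gq and phospholipase C, and Htr4 and Htr7 act through Gs and raise cyclic AMP.

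The values are deposited intensities on a linear scale, already brought to a common level on all arrays, with array medians of 25.9 to 27.3. They carry no detection calls, and intensities of different probe sets cannot be set against each other. Probe sets whose mean fell under the 40th percentile, an intensity of 14.3, were not tested, which left 27000 probe sets. Of the 16 serotonin receptor probe sets, 13 were tested, from 7 genes, and 3 were not. Differences are given as sample-2 minus sample-1 level in log2(intensity + 16), a scale that understates ratios at low intensity, with limma's standard error and with p-values adjusted over all 27000 probe sets. All 12 sensory neuron markers found on the arrays passed the filter.

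**Figure D1:**
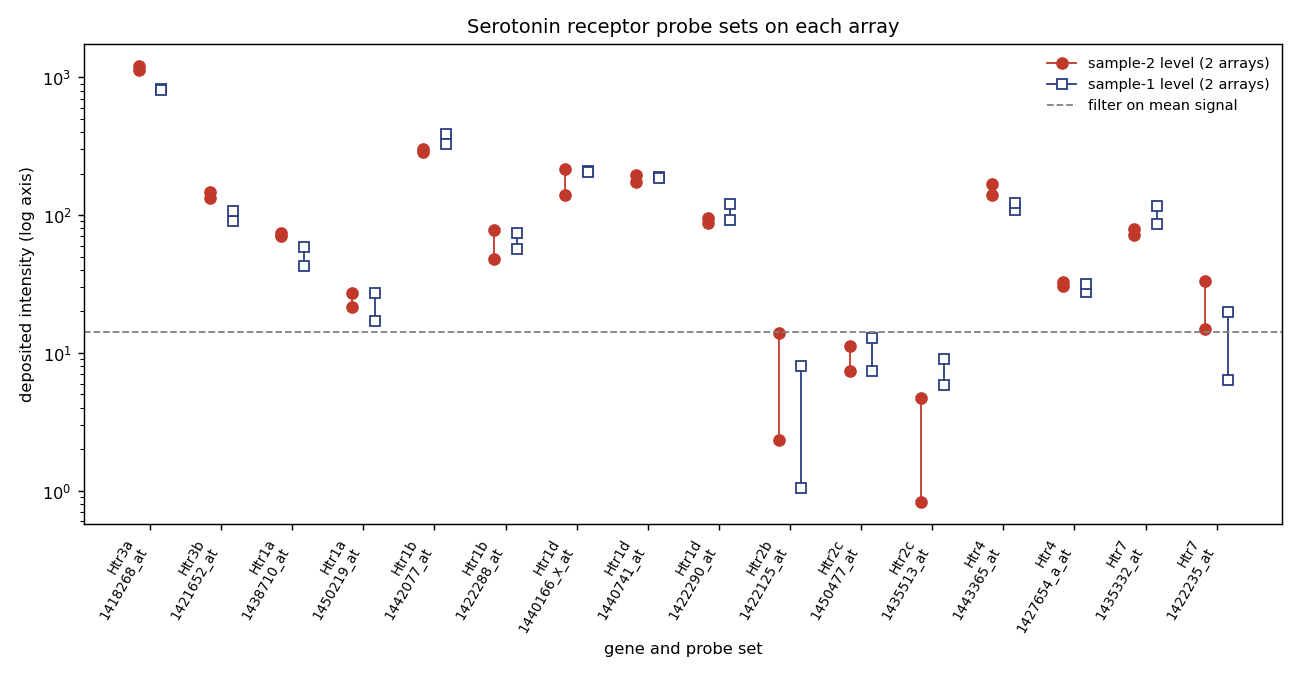
Deposited intensity (log axis) of each of the 16 serotonin receptor probe sets on each array, with the 2 sample-2 arrays as filled circles left of the 2 sample-1 arrays as open squares, and a line joining the arrays of a level. Heights of different probe sets are not comparable. The Htr3a, Htr3b, first Htr1a and first Htr4 probe sets have both sample-2 arrays above both sample-1 arrays, as do 21.1% of all tested probe sets. The first Htr1b, first Htr7 and second Htr2c probe sets have both below, as do 20.1% of all tested probe sets. The 3 probe sets of Htr2b and Htr2c, which were not tested, lie under the dashed filter level of 14.3.

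Htr3a, which encodes the subunit that can form a working serotonin-gated channel on its own, was higher in ganglia of the sample-2 level. Its probe set 1418268_at measured 1122 and 1211 on the sample-2 arrays, against 820 and 813 on the sample-1 arrays. The levels did not overlap, and the arrays of each level lay close together. The means were 1167 ± 62.7 at the sample-2 level and 816 ± 4.96 at the sample-1 level (SD, n = 2 each). The difference was 0.51 ± 0.08 (limma, adjusted p = 0.0235), or 1.42-fold with a 95% interval of 1.25 to 1.61, and it ranked 71 among all tested probe sets by p. Htr3a was the 1 serotonin receptor probe set of 13 past an adjusted p of 0.05, against 0.622% of all tested probe sets in either direction and 0.222% in the upward one.

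The size of the Htr3a difference was steadier than its call. Across the 13 alternative settings it lay between 0.43 and 0.56, with adjusted p (limma) from 0.000366 to 0.438. Part of that steadiness was fixed in advance. Changing the filter, dropping the trend or adding a block for the array number cannot move the difference, which stayed at 0.51 in each. It missed the threshold with sample-1 array 1 left out (adjusted p = 0.0721), with sample-1 array 2 left out (0.0753) and with sample-2 array 2 left out (0.113). It also missed it without the filter on low signal (0.221) and without the intensity trend in the spread (0.438).

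Htr3b encodes the subunit that joins Htr3a in mixed channels and does not form a channel alone, and the genes are direct neighbours among protein-coding genes in RefSeq's GRCm38.p6 annotation. Its probe set 1421652_at measured 133 and 146 on the sample-2 arrays, against 91.3 and 107 on the sample-1 arrays. These groups did not overlap either, but the gap between them was narrower in relation to their spread. The means were 139.8 ± 8.94 at the sample-2 level and 99.2 ± 11.2 at the sample-1 level (SD, n = 2 each), a difference of 0.44 ± 0.14 that did not pass (limma, adjusted p = 0.254). Over the alternative settings its adjusted p (limma) ranged from 0.132 to 0.569.

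The pair was also compared within each array. In log2(intensity + 16), Htr3b minus Htr3a was -2.93 and -2.92 on the sample-2 arrays and -2.96 and -2.75 on the sample-1 arrays. The sample-2 values lay between the sample-1 values, so the balance of the 2 probe sets did not separate the levels. The mean shift was -0.07 (exact permutation test, 2-sided, p = 1), in a design of 6 arrangements whose smallest possible p is 0.333. The shift was -0.02 with a pseudocount of 1, -0.16 with one of 64, -0.17 without sample-1 array 1 and 0.04 without sample-1 array 2, so its sign turned on 1 array. Such a value shows whether the probe sets changed unequally, and says nothing of whether either changed.

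**Figure D2:**
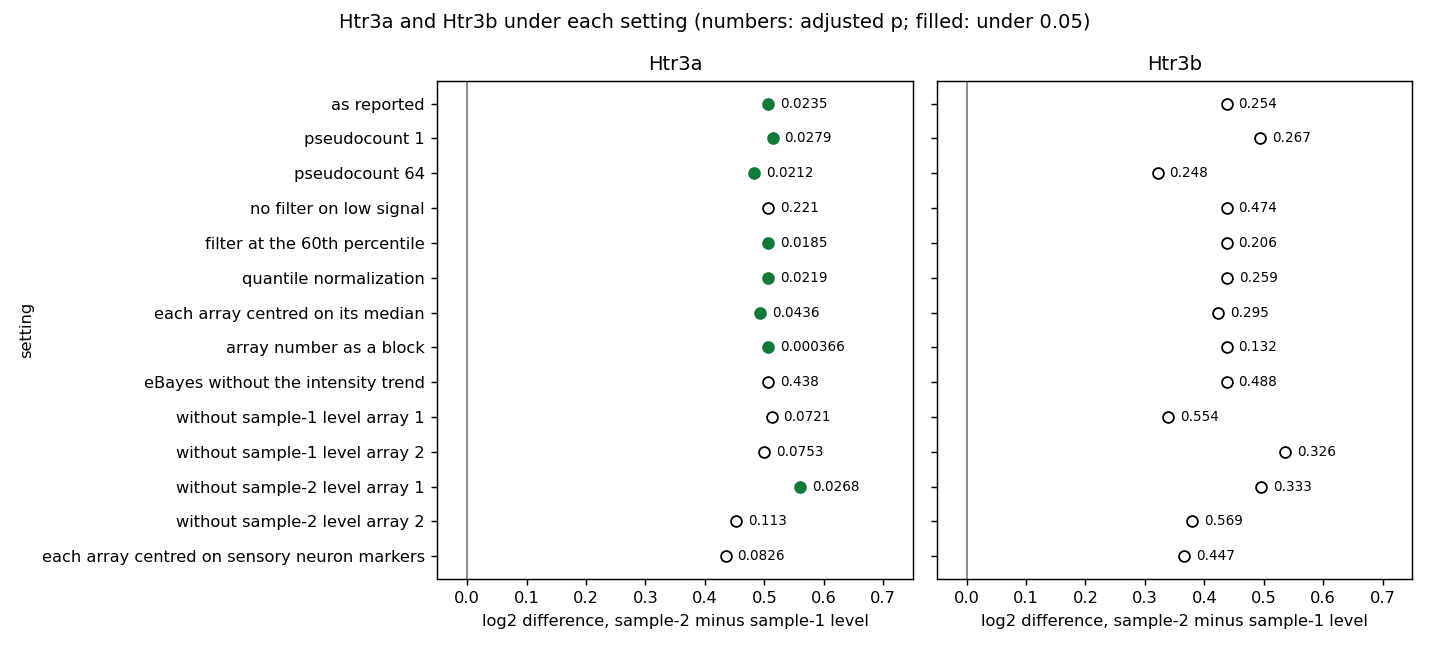
Difference in log2 intensity (sample-2 minus sample-1 level, x axis) of Htr3a on the left and Htr3b on the right under each processing setting (y axis), with the adjusted p printed beside each point and filled points where it was under 0.05. Htr3a stays between 0.43 and 0.56 and loses its call in 6 of the 13 alternatives, and Htr3b stays above 0 and passes in none.

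The 8 G-protein-coupled genes had 14 probe sets, of which 11 were tested and 0 passed, with adjusted p (limma) from 0.370 to 0.979. At an unadjusted p under 0.05 there were 3 of these 11. Of the 11, 5 lay above 0 and 6 below, between -0.36 and 0.46, where 51% of all tested probe sets lay above 0. Over all 13 tested serotonin receptor probe sets the median difference was 0.06, against 0.0045 for all tested probe sets. Both sample-2 arrays lay above both sample-1 arrays for 4 of the 13, against 21.1% of all tested probe sets, and below them for 2, against 20.1%. Together that is 46.2%, near the 41.2% of all tested probe sets whose levels did not overlap. An unadjusted p under 0.05 was found for 5 of the 13 (38.5%), against 10.9% of all tested probe sets.

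**Figure D3:**
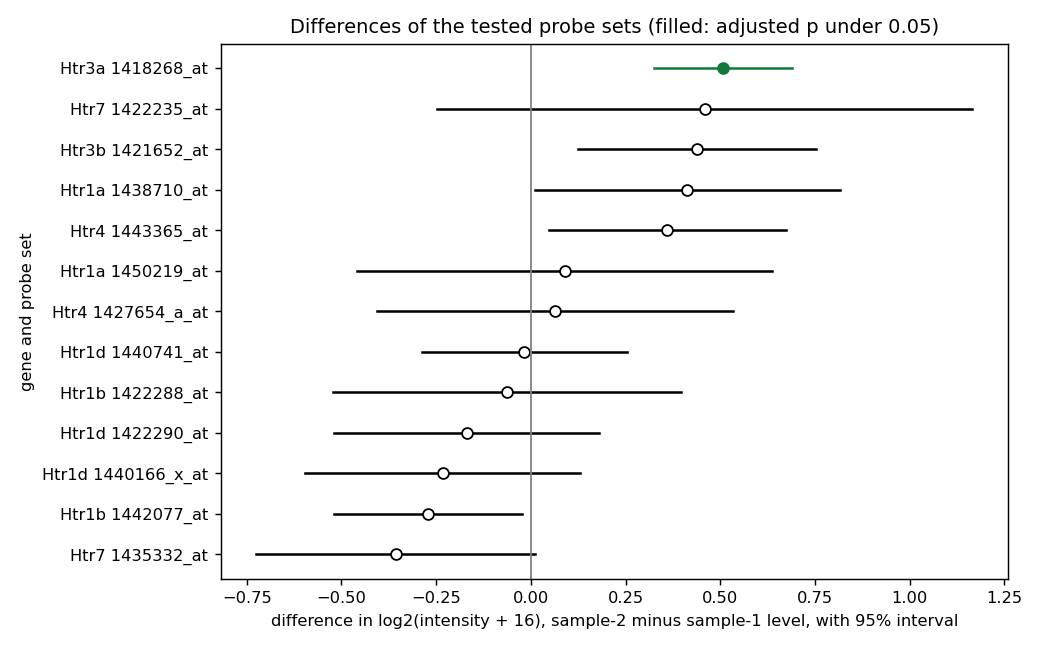
Difference in log2(intensity + 16), sample-2 minus sample-1 level (x axis), of the 13 tested serotonin receptor probe sets (y axis), with limma's unadjusted 95% interval as a line. The filled point of Htr3a at 0.51 is the one past an adjusted p of 0.05, and the probe sets of Htr7 stand near opposite ends, at 0.46 and -0.36.

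Among the Gi/o-coupled receptors, Htr1a, an autoreceptor of serotonin neurons in the brain, had 2 tested probe sets. Probe set 1438710_at measured 70.5 and 73.9 at the sample-2 level, against 42.4 and 59.1 at the sample-1 level. The levels did not overlap, the sample-1 arrays were far apart, and the difference of 0.41 ± 0.18 did not pass (limma, adjusted p = 0.446). Probe set 1450219_at measured 21.4 and 27.1 at the sample-2 level, against 17.2 and 27.0 at the sample-1 level. These overlapped, and the difference was 0.09 ± 0.25 (limma, adjusted p = 0.940), with a 95% interval of -0.46 to 0.64.

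Htr1b and Htr1d encode the receptors through which triptan drugs hold back transmitter release from sensory nerve endings. Of Htr1b, 1442077_at measured 300.0 and 285 at the sample-2 level, against 385 and 329 at the sample-1 level. The sample-2 arrays were both the lower ones, with a difference of -0.27 ± 0.11 that did not pass (limma, adjusted p = 0.406). Its other probe set, 1422288_at, measured 48.2 and 78.2 at the sample-2 level, against 74.2 and 57.2 at the sample-1 level. Here the levels overlapped, and the difference was -0.06 ± 0.21 (limma, adjusted p = 0.952).

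Htr1d had 3 tested probe sets, all below 0 and all overlapping between levels. Probe set 1440741_at measured 196 and 174 at the sample-2 level, against 188 and 186 at the sample-1 level. Its difference was -0.02 ± 0.12, with a 95% interval of -0.29 to 0.25, or 0.819-fold to 1.19-fold. Probe set 1440166_x_at, whose suffix marks probes that can match other transcripts, measured 215 and 141 at the sample-2 level, against 210 and 207 at the sample-1 level. Sample-2 array 2 stood apart there, and without it the difference of -0.23 became 0.05. The remaining probe set, 1422290_at, measured 88.1 and 95.7 at the sample-2 level, against 92.2 and 120.0 at the sample-1 level, a difference of -0.17 ± 0.16 (limma, adjusted p = 0.770).

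The Gq-coupled receptors gave no measurement that could be tested. Htr2b, a receptor of smooth muscle, heart valves and some sensory neurons, measured 2.34 and 14.0 at the sample-2 level, against 1.04 and 8.05 at the sample-1 level. Htr2c, best known from the brain's choroid plexus, measured 11.1 and 7.34 at the sample-2 level, against 7.40 and 12.8 at the sample-1 level, by 1450477_at. By 1435513_at it measured 4.70 and 0.826 at the sample-2 level, against 5.81 and 9.04 at the sample-1 level. All of these 12 values lay below 14.3, and at such intensities the arrays of a level differed by up to several-fold. Fitted without the filter, the 3 probe sets had adjusted p (limma) of 0.892, 0.979 and 0.716.

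Among the Gs-coupled receptors, Htr4, best known from the gut, had 2 tested probe sets, both above 0. Probe set 1443365_at measured 140 and 167 at the sample-2 level, against 109 and 123 at the sample-1 level. The levels did not overlap, and the difference of 0.36 ± 0.14 had the lowest p of the G-protein-coupled genes without passing (limma, adjusted p = 0.370). Probe set 1427654_a_at measured 30.6 and 32.7 at the sample-2 level, against 27.8 and 31.4 at the sample-1 level. Its arrays overlapped, and the difference was 0.06 ± 0.22 (limma, adjusted p = 0.953).

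Htr7, a receptor with a part in pain and itch in mice, had 2 tested probe sets on opposite sides of 0. Probe set 1435332_at measured 78.9 and 71.6 at the sample-2 level, against 116 and 86.9 at the sample-1 level. Both sample-2 arrays were lower, with a difference of -0.36 ± 0.17 (limma, adjusted p = 0.474) and a 95% interval of -0.72 to 0.01. Probe set 1422235_at measured 14.9 and 33.0 at the sample-2 level, against 6.36 and 19.8 at the sample-1 level. It lay above 0, at 0.46 ± 0.32 (limma, adjusted p = 0.668), with overlapping arrays. Its sample-1 mean of 13.1 was under the filter level, so that it was tested only through its sample-2 arrays. Its fitted difference depends on the pseudocount, at 0.91 with one of 1 and 0.19 with one of 64. It also depends on single arrays, at 0.12 without sample-1 array 1 and 0.80 without sample-1 array 2. The probe set was not tested when sample-2 array 2 was left out.

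The other genes of serotonin signalling, in 6 lists, did not pass either. Of 74 tested genes, each represented by its brightest tested probe set, 0 passed an adjusted p of 0.05 (limma), against 0.842% of the 13532 tested genes. At an unadjusted p under 0.05 there were 15 of the 74 (20.3%), against 12.3% of all tested genes. Of the 74, 48 lay above 0 and 26 below, and 48.8% of all tested genes lay above 0.

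The remaining serotonin receptors had 3 tested genes of 4, all above 0, with a median of 0.25 against -0.01 for all tested genes. Htr1f, a Gi/o-coupled receptor and drug target in migraine, measured 63.1 and 82.6 at the sample-2 level, against 58.3 and 58.4 at the sample-1 level. Htr5a measured 18.6 and 38.9 at the sample-2 level, against 23.2 and 17.6 at the sample-1 level. Neither passed (limma, adjusted p = 0.671 and 0.798).

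Among genes of serotonin synthesis, transport and breakdown, 12 were tested, 9 lay above 0 and 3 below, and the median was 0.10. Maob, a monoamine oxidase, measured 65.4 and 64.2 at the sample-2 level, against 41.4 and 48.0 at the sample-1 level (0.41 ± 0.18, limma, adjusted p = 0.420). Ddc, the decarboxylase that makes serotonin and dopamine, measured 24.4 and 18.4 at the sample-2 level, against 26.1 and 31.7 at the sample-1 level (adjusted p = 0.752). The probe sets of the tryptophan hydroxylases Tph1 and Tph2 and of the serotonin transporter Slc6a4, named here after their values were seen, were too dim to be tested. Slc6a4 measured 2.99 and 5.95 at the sample-2 level, against 8.79 and 11.3 at the sample-1 level.

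Receptor partners and chaperones had 16 tested genes, with 9 above 0, 7 below and a median of 0.01. Cav1, caveolin of surface membrane pits, came nearest to the threshold among the lists. It measured 852 and 808 at the sample-2 level, against 1093 and 1104 at the sample-1 level, with a difference of -0.40 ± 0.08 (limma, adjusted p = 0.0586). The levels were well apart, and over 13 alternative settings its adjusted p (limma) ranged from 0.00489 to 0.485. Cav1 passed when the array number was a block, with a filter at the 60th percentile (adjusted p = 0.0439) and with arrays centred on sensory neuron markers (adjusted p = 0.0406). Cav1 is also abundant in endothelial cells and fibroblasts. Adarb2, a relative of the enzymes that edit Htr2c RNA, measured 11.1 and 16.7 at the sample-2 level, against 15.2 and 21.2 at the sample-1 level. Its sample-2 mean of 13.9 was under the filter level, so that it was tested only through its sample-1 arrays.

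Of the Gi/o arm 12 genes were tested, 11 of them above 0, with a median of 0.12. Rgs8, a regulator that shortens G protein signals, measured 202 and 200.2 at the sample-2 level, against 143 and 136 at the sample-1 level (0.48 ± 0.12, limma, adjusted p = 0.129). Kcnj3, a subunit of the potassium channels that Gi/o-coupled receptors open, measured 115 and 106 at the sample-2 level, against 102 and 83.8 at the sample-1 level. Of the Gs arm 17 genes were tested, 8 above 0 and 9 below, with a median of -0.01. Gnal, a Gs-like alpha subunit, measured 1832 and 1576 at the sample-2 level, against 1427 and 1412 at the sample-1 level (adjusted p = 0.260). Adcy7, an adenylyl cyclase, measured 105 and 89.7 at the sample-2 level, against 140.3 and 127 at the sample-1 level (adjusted p = 0.315).

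**Figure D4:**
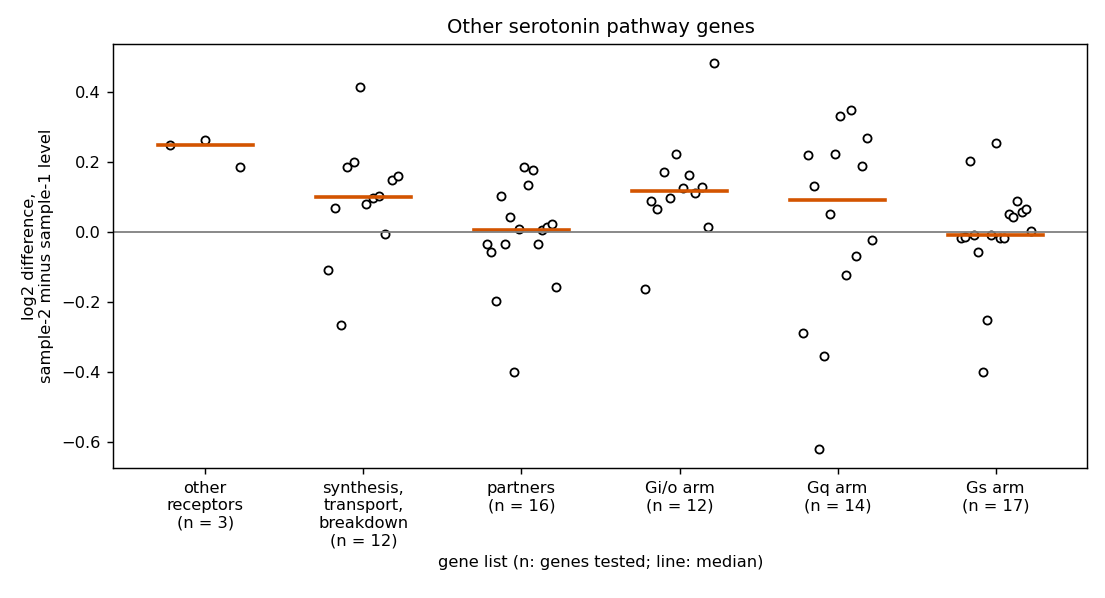
Difference in log2(intensity + 16), sample-2 minus sample-1 level (y axis), of each tested gene in 6 lists of serotonin signalling genes (x axis), 1 open circle a gene, with the list's median as a line. No gene passed an adjusted p of 0.05, the medians run from -0.01 for the Gs arm to 0.25 for the other receptors, and the Gq arm spreads widest, down to -0.62 for Itpr2.

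Several marker lists moved with the level, and their part in the serotonin receptor values was not tested. For the counts that follow, 0.842% of the 13532 tested genes passed in either direction and 48.8% lay above 0. The intensities of the 12 tested sensory neuron markers summed to 55126 and 50584 at the sample-2 level, against 51436 and 52969 at the sample-1 level, which overlap. Such sums, here and below, are ruled by the brightest probe sets of a list and can differ from its median. They do not compare one list with another. Of the 12, 9 lay above 0, with a median of 0.06, and 0 passed. When arrays were centred on these 12 markers, a setting chosen after seeing the data, the Htr3a difference was 0.43 (limma, adjusted p = 0.0826). All 9 tested fibroblast and meningeal markers lay below 0 and 7 passed, with sums of 8966 and 8417 at the sample-2 level, against 15488 and 13672 at the sample-1 level. All 6 neutrophil markers lay above 0 and passed, with sums of 6523 and 8192 at the sample-2 level, against 3246 and 3854 at the sample-1 level. All 11 skeletal muscle markers lay below 0, with a median of -1.19, and 1 passed, and their sums of 1734 and 1165 at the sample-2 level stood against 1459 and 7374 at the sample-1 level, the last being sample-1 array 2. Without that array, which left 1 array at the sample-1 level, the Htr3a difference was 0.50 and, as given above, missed the threshold. Whether muscle content bears on it was not tested. All 6 Schwann cell markers lay below 0 and 1 passed, with sums of 15908 and 12572 at the sample-2 level, against 17579 and 16230 at the sample-1 level. All 6 satellite glia markers lay below 0 and 0 passed, with sums of 6623 and 6462 at the sample-2 level, against 6805 and 7058 at the sample-1 level. All 3 tested red cell markers lay above 0 and 1 passed, with sums of 376 and 555 at the sample-2 level, against 228 and 263 at the sample-1 level.

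The stores of serotonin were also looked at through their cells. Of 5 platelet markers 4 lay above 0 and 1 below, with a median of 0.26. None passed, and the sums were 494 and 604 at the sample-2 level, against 428 and 417 at the sample-1 level. Of 7 mast cell markers 2 lay above 0 and 5 below, with a median of -0.23. None passed, and the sums were 467 and 438 at the sample-2 level, against 472 and 442 at the sample-1 level. At an unadjusted p under 0.05 (limma) there were 3 of the 7 mast cell markers (42.9%), all lower, and 1 of the 5 platelet markers (20%), higher. The share over all tested genes was 12.3%. In whole ganglia, fewer cells of a type and less RNA per cell cannot be told apart.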

How the data were processed

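The authors deposited 1 linear intensity per probe set and array. Trimmed of the top and bottom 2% of values, each array averaged 150.0, which shows prior scaling to one target, and the software that did it is not given in the sources used here. As log2(intensity + 16), the medians of the arrays differed by at most 0.05, and no further scaling was applied. Left out were 64 control probe sets and all probe sets averaging below the 40th percentile. On the remaining 27000, limma 3.58.1 under R 4.3.3 fitted the level as the only term (lmFit; eBayes, trend on intensity), leaving 2 residual degrees of freedom. The threshold was a Benjamini-Hochberg adjusted p of 0.05, and intervals of 95% are unadjusted. The fit was tested on simulated data, and the outcome is not reported here. Symbols came from the platform annotation, where 0 probe sets with several symbols held a member, and all 10 members were found in RefSeq's GRCm38.p6 gene table. Precision is limited by the number of arrays.

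The members, the gene lists and the tests were chosen with earlier results of these data known. Every member was named with all its probe sets. Of each other list of serotonin signalling genes, up to 4 genes past the threshold were named by size, or, with none past it, the 2 genes that differed most. Marker lists are given by counts and summed intensities. Among the other lists, 0 of 2 spinal cord and 0 of 4 sympathetic neuron markers passed. Alternatives were pseudocounts of 1 and 64, no filter, a 60th percentile filter, quantile normalization and median centring. Others were a block for the array number, no trend in eBayes and leaving out each array. With centring on sensory neuron markers, chosen after seeing the data, these make up the 13 settings. Counts were also taken with the mean of a gene's probe sets and without probe sets with _x_at or _s_at endings.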

Additional observations from a re-analysis of the deposited data

How the results depend on the processing

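With 2 arrays a level, the number of calls depended on the settings, and so did the size of some differences. The Htr3a difference stayed between 0.43 and 0.56, while that of Htr7 1422235_at ran from 0.12 to 0.91. Part of any steadiness was fixed in advance, since the filter, the trend and the array block cannot move a difference. Those settings are among the alternative values counted below. Against 168 probe sets past the threshold (60 up and 108 down), 4 passed without the filter on low signal, 104 with each array centred on its median, 1 without the intensity trend and 259 (47 up, 212 down) with arrays centred on sensory neuron markers. Leaving out each array in turn gave 104 to 242. The serotonin receptor count of 1, Htr3a, became 0 without the filter, without the trend and with arrays centred on neuron markers, and was 0 to 1 with each array left out in turn. It stayed at 1 without probe sets ending in _x_at and _s_at. The count of 0 serotonin signalling genes became 1, Cav1, with a filter at the 60th percentile, with the mean of a gene's probe sets and with arrays centred on neuron markers. Of 165 alternative values of the 13 tested receptor probe sets, 152 kept their direction and side of the threshold, 6 lost the Htr3a call and 7 changed sign, and none of those 7 belonged to a call. With each array left out in turn, Htr1a 1450219_at ranged from -0.10 to 0.28, Htr1b 1422288_at from -0.34 to 0.21, Htr1d 1440166_x_at from -0.51 to 0.046 and Htr1d 1440741_at from -0.10 to 0.061, and, of the other serotonin receptors, Htr5a 1443276_at from -0.071 to 0.60. Htr4 1427654_a_at was at -0.0076 with arrays centred on neuron markers. Neuron marker centring was chosen after seeing the data. The cause of these changes was not tested.

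The labels number the arrays of both levels 1 and 2 without saying that a number is shared. Deviations of same-numbered arrays from their level means correlated at 0.03. This is a single value, since with 2 arrays a level both pairs must give the same one. With the array number as a replicate block 804 probe sets passed, 1 receptor probe set (Htr3a, limma, adjusted p = 0.000366) and 3 signalling genes, Cav1 lower and Rgs8 and Prkca higher (adjusted p = 0.00489, 0.0385 and 0.0126). The block takes up a residual degree of freedom, and it hardly changed the standard error of Htr3a (0.0826 with it, 0.0835 without). Why more probe sets passed was not tested.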

Other observations

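The genes of the Gq arm, through which the Htr2 receptors act, spread widely although 0 of 14 tested genes passed (limma). The median was 0.09, and 8 of the 14 had an unadjusted p under 0.05 (57.1%), against 12.3% of all tested genes, 5 of them above 0 and 3 below. Those other than Itpr2 and Itpr3 are named here after their values were seen. The protein kinase C genes Prkca and Prkce stood among the higher ones, and not every gene of the arm is named here. Prkca measured 1289 and 1118 at the sample-2 level, against 989 and 889.96 at the sample-1 level (0.35 ± 0.09, limma, adjusted p = 0.151). Prkce measured 1324 and 1217 at the sample-2 level, against 1069 and 1033 at the sample-1 level (0.27 ± 0.08, adjusted p = 0.213). Plcb3, a phospholipase C of sensory neurons, measured 538 and 499.7 at the sample-2 level, against 387 and 432 at the sample-1 level (0.33 ± 0.10, adjusted p = 0.220). In these 3 genes, picked after their values were seen, both sample-2 arrays lay above both sample-1 arrays. The same held for 21.1% of all tested probe sets.

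The alpha subunits Gna11 and Gna14 of the Gq arm did not go the same way. Gna11 measured 577 and 588 at the sample-2 level, against 669 and 765 at the sample-1 level (-0.29 ± 0.10, limma, adjusted p = 0.262). Gna14 measured 673 and 738 at the sample-2 level, against 611 and 595 at the sample-1 level (0.22 ± 0.09, adjusted p = 0.407). The calcium release channels Itpr2 and Itpr3 lay below 0. Itpr2 measured 21.0 and 14.3 at the sample-2 level, against 37.3 and 33.7 at the sample-1 level (-0.62 ± 0.24, adjusted p = 0.342). Itpr3 measured 193 and 157 at the sample-2 level, against 238 and 217 at the sample-1 level (-0.35 ± 0.13, adjusted p = 0.336).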
